A study of Mus musculus with 12 samples.

Results

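The Nlrp4, Nlrp9 and Nlrp14 genes are oocyte genes of the NLR family, and their transcripts were followed in mouse 2-cell embryos cultured with a tankyrase inhibitor. The 8 members, Nlrp4a, Nlrp4b, Nlrp4c, Nlrp4e, Nlrp9a, Nlrp9b, Nlrp9c and Nlrp14, were found by gene symbol in an RNA-seq table of 24918 gene entries, and all 8 passed the filter on low counts that left 14994 genes. Embryos of NSA(CF-1) females and B6SJLF1/J males were kept at 5% oxygen in KSOM medium with either 50 µM IWR1-endo, an inhibitor of tankyrase called IWR1 below, or the solvent DMSO alone. They were collected 46 h after the females received human chorionic gonadotropin, so every group also shares superovulation and culture. Each group had 4 RNA-seq libraries of 10 pooled embryos each, numbered 1 to 4 for DMSO and 5 to 8 for IWR1. Library totals ranged from 16606155 to 49672143 counts. Lists of open chromatin regions from ATAC-seq, 2345 higher and 1400 lower in IWR1, came from collections of 100 embryos. The label 2-cell embryo was checked against 10 genes of that stage, of which all 10 passed the filter and none was at 0. Their summed level was 1384 to 1696 CPM in DMSO and 2225 to 3034 CPM in IWR1, with 5 higher and 3 lower. CPM are counts scaled by the library total multiplied by its TMM factor, a scaling factor computed by edgeR. These factors ran from 0.840 in DMSO library 3 to 1.09 in IWR1 library 6.

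NLRP proteins carry a pyrin domain, a nucleotide-binding NACHT domain and leucine-rich repeats. Some, such as NLRP3, assemble inflammasomes in immune cells, while the rodent Nlrp4, Nlrp9, Nlrp5 and Nlrp14 genes are known for their transcription in growing oocytes. Their mRNAs are stored in the egg and are degraded together with much of the maternal RNA when the embryo starts its own transcription. In the mouse, maternal loss of Nlrp14 stops embryos early in cleavage, and knockdown of Nlrp4e has also been reported to stop preimplantation development.

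All 8 genes lie on mouse chromosome 7. RefSeq promoter windows (build GRCm38.p6, which is mm10) reach from 250 bases before to 50 bases after an annotated start and were held for 7 of the 8 members, in 9 windows. The window of Nlrp14 was not used here. The windows of Nlrp9a and Nlrp9c resembled each other, as did those of Nlrp4b, Nlrp4c and 1 of 2 starts of Nlrp4a, and a pair from each is shown so that the likeness can be seen. The 250 bases before the start of Nlrp9a (chr7:26534773-26535022, plus strand) and of Nlrp9c (chr7:26403701-26403950, minus strand) are given 5′ to 3′ along the gene, with the pentamer CCAAT, or its reverse complement ATTGG, in capitals.
Nlrp9a: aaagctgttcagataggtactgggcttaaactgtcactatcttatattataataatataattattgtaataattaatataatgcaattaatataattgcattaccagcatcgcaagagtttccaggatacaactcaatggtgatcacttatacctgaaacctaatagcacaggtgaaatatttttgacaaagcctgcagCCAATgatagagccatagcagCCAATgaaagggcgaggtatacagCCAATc
Nlrp9c: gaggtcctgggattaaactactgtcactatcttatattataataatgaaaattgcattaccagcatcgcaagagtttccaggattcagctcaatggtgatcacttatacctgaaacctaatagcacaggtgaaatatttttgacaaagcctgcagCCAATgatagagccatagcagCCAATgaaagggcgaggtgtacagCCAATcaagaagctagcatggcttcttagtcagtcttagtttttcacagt
Over the best local alignment of 207 columns these windows shared 203 bases (98.1%), with an unbroken identical run of 106 bases. Each held 3 CCAAT boxes in the same order and spacing, at -51, -30 and -6 from the start in Nlrp9a and at -95, -74 and -50 in Nlrp9c, counted with the annotated first base as 0. The Nlrp9b window held no CCAAT box and its longest identical run with Nlrp9c was 8 bases. Its global identity was 45.6% with Nlrp9a and 43.9% with Nlrp9c. The start of this window, 20008023, lies inside the Nlrp9b gene model, which begins at 19991393.

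The Nlrp4b window (chr7:10687543-10687792, plus strand) and the Nlrp4c window (chr7:6044911-6045160, plus strand) resembled each other and the second of 2 annotated starts of Nlrp4a. They are shown in the same way, upstream of the start.
Nlrp4b: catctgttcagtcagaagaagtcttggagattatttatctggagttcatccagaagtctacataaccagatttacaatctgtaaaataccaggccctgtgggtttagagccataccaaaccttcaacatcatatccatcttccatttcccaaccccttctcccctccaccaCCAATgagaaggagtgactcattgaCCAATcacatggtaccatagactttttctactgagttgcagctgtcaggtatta
Nlrp4c: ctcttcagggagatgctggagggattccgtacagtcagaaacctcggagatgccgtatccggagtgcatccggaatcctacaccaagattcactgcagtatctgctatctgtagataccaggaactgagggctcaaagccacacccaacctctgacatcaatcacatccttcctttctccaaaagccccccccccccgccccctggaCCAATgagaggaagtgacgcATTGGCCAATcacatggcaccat
Their global identity was 60.0%, and that of Nlrp4a with Nlrp4b was 70.8%, against a median of 46.5% over the 34 pairs of member windows. The window shown for Nlrp4b is that of the first of its 2 annotated starts. With its second start the values were lower, 50.7% with Nlrp4c and 62.6% with Nlrp4a. The Nlrp4e window had 42.1% to 49.4% identity with the other Nlrp4 windows, and the first start of Nlrp4a 44.2% to 47.6% with Nlrp4b, Nlrp4c and Nlrp4e. In all 3 genes a CCAAT box was followed at once by an E-box, the hexamer CANNTG bound by basic helix-loop-helix factors such as FIGLA. The stretch around it is shown at chr7:26435556-26435582 for Nlrp4a, chr7:10687731-10687757 for Nlrp4b and chr7:6045135-6045161 for Nlrp4c, with the joined motif in capitals.
Nlrp4a: agcgctggCCAATCACATGgcaacata
Nlrp4b: ctcattgaCCAATCACATGgtaccata
Nlrp4c: cgcattggCCAATCACATGgcaccata
This 11-letter motif, CCAATCACATG, was held by 12 of 32851 promoter windows (0.0365%), 4 of them windows of these 3 genes. Its letters were taken from the members' own windows, so that these genes hold it was fixed in advance. The 2 windows of Nlrp4b overlap and hold the same site.

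Single motifs were searched on both strands of the 300-base windows. An E-box was found in 9 of 9 member windows and in 72.3% of all windows. A CCAAT box was found in 7 of 9 member windows, from 6 of 7 members, and in 37.4% of all windows. The windows of Nlrp9a, Nlrp9c and Nlrp4c held 3 each, and 3.37% of all windows held 3 or more. Several member windows resemble one another, as shown above, so their matches are not separate finds. The homeobox hexamer TAATTG, linked to NOBOX, was in windows of 2 members and in 8% of all windows, TAATTA in 1 member and 5.29%, and the TATA box TATAAA in 1 member and 13.6%. CCAAT was added to the search after these sequences had been read. A match describes letters only.

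**Figure D1:**
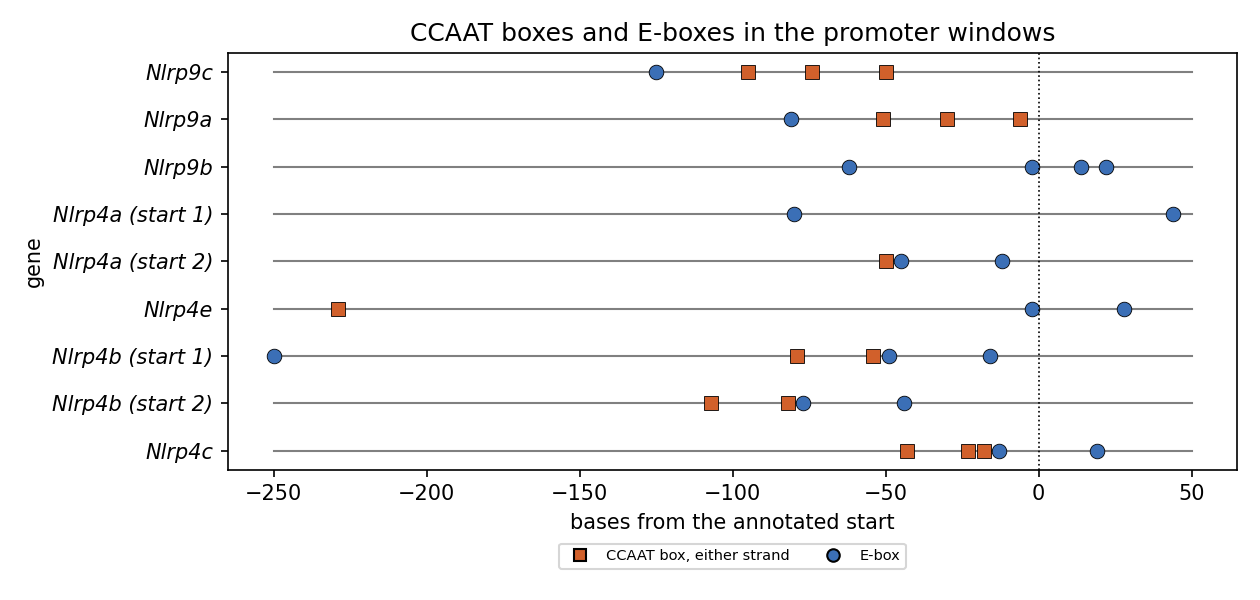
CCAAT boxes on either strand (squares) and E-boxes (circles) in the 9 promoter windows of 7 members, by distance in bases from the annotated start (dotted line). The Nlrp9c and Nlrp9a windows carry the same row of 3 CCAAT boxes at different distances, and Nlrp4a, Nlrp4b and Nlrp4c share a CCAAT box beside an E-box.

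Transcript levels are given as FPKM, counts scaled by gene length and by the total of the library, computed from the deposited counts. In DMSO embryos Nlrp9c was the most abundant member with 228 ± 98.2 FPKM (SD, n = 4). Nlrp14 with 56.0 ± 17.2 FPKM and Nlrp9a with 47.8 ± 23.8 FPKM came next and did not differ beyond their spread. Nlrp4a with 13.5 ± 6.23 FPKM and Nlrp4e with 12.7 ± 5.26 FPKM were alike within their spread, as were Nlrp9b with 6.26 ± 4.20 FPKM and Nlrp4b with 5.41 ± 2.2 FPKM. Nlrp4c was lowest with 1.14 ± 0.885 FPKM (SD, n = 4 each). Together the 8 genes took 0.116% ± 0.0479 of the counts in DMSO and 0.306% ± 0.0684 in IWR1 (SD, n = 4 each).

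**Figure D2:**
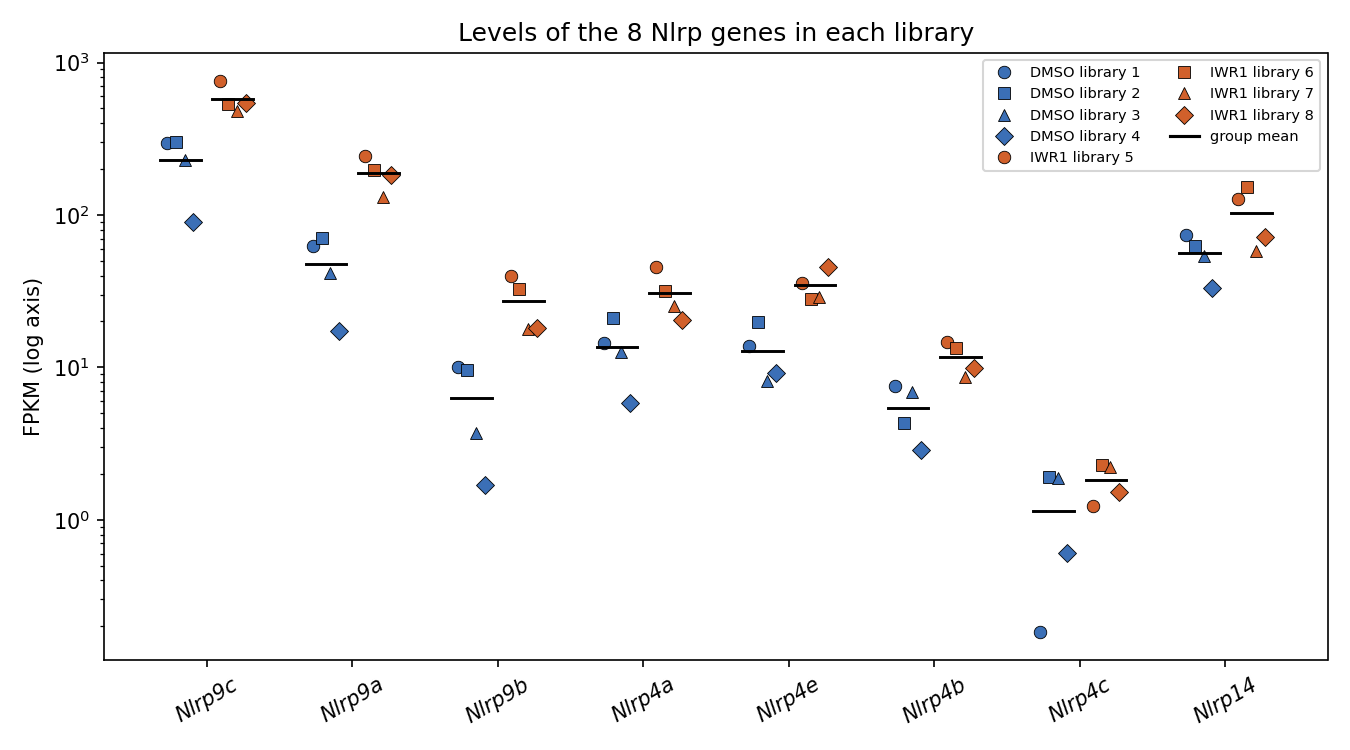
FPKM (log axis) of each member in the 4 DMSO libraries (blue) and the 4 IWR1 libraries (orange), with the library shown by the symbol and the group mean by a bar. In FPKM, which leaves out the TMM factors, the groups stand apart for Nlrp9c, Nlrp9a, Nlrp9b, Nlrp4e and, by a small margin, Nlrp4b. They overlap for Nlrp4a, Nlrp4c and Nlrp14.

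IWR1 was compared with DMSO to ask whether these maternal transcripts take another share of the RNA when tankyrase is inhibited. Of the 8 members, 6 were higher in IWR1, 0 were lower and Nlrp4c and Nlrp14 did not pass edgeR's quasi-likelihood test (threshold 0.05 after Benjamini-Hochberg adjustment over all 14994 genes). Among all genes tested, 23.3% were called higher and 25.4% lower. Of the 7070 genes averaging 5 FPKM or more, 27.9% were called higher and 41.2% lower. When such genes were fitted alone the shares were 34.9% and 36.8%, with 7 of 7 members called, and DESeq2 called 7 members beside 27.5% of genes higher and 26.1% lower. The median log2 fold change of the 8 members was 1.12 and that of all genes tested 0.17. Counts are relative to the rest of a library, so a rise need not mean more copies per embryo, and fewer cells and less RNA per cell cannot be told apart. The Nlrp4 and Nlrp9 genes are paralogs, and the sources used here do not say how reads that fit several of them were counted, so the value of each copy is uncertain.

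The Nlrp9 genes rose in IWR1 by 2.29-fold to 4.01-fold. Nlrp9c (gene ID 330490, chromosome 7, 26364691 to 26403700) had 297, 299, 228 and 89.2 FPKM in DMSO libraries 1 to 4 and 761, 531, 481 and 541 FPKM in IWR1 libraries 5 to 8. Every IWR1 library lay above every DMSO library, and DMSO library 4 was far below the others of its group. The log2 fold change of Nlrp9c was 1.19 (SE 0.32, edgeR adjusted p = 0.00770). Nlrp9a (gene ID 233001, 26535023 to 26574148) had 62.7, 70.1, 41.3 and 17.2 FPKM in DMSO and 242, 196, 132 and 183 FPKM in IWR1. The groups were apart again, with the lowest IWR1 library well above the highest DMSO library. Nlrp9a rose by 1.84 on the log2 scale (SE 0.35, edgeR adjusted p = 0.000935).

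Nlrp9b (gene ID 243874, 19991393 to 20062942), which is also known as a sensor of viral RNA in the mouse gut epithelium, had the largest log2 fold change of the 8, 2.00 (SE 0.47, edgeR adjusted p = 0.00383). It had 10.0, 9.64, 3.70 and 1.70 FPKM in DMSO and 39.5, 32.7, 17.9 and 18.2 FPKM in IWR1. DMSO libraries 1 and 2 were above 3 and 4, and IWR1 libraries 5 and 6 above 7 and 8, but the groups did not overlap. The gene model, but not the start of the promoter window described above, begins 280 bases from that of Ceacam20, a gene of the carcinoembryonic antigen family. Ceacam20 had 27.1, 34.7, 26.3 and 7.98 FPKM in DMSO and 190, 155, 151 and 192 FPKM in IWR1, all IWR1 libraries far above all DMSO libraries. It rose by 2.68 (SE 0.35, edgeR adjusted p = 7.32e-05). Whether reads of Ceacam20 enter the count of Nlrp9b was not tested.

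Of the Nlrp4 genes, Nlrp4a, Nlrp4b and Nlrp4e rose and Nlrp4c did not pass. Nlrp4e (gene ID 446099, 23301192 to 23362277) had 13.8, 19.7, 8.19 and 9.19 FPKM in DMSO and 35.8, 28.0, 28.9 and 45.6 FPKM in IWR1. The groups did not overlap, and the log2 fold change was 1.30 (SE 0.26, edgeR adjusted p = 0.00127). Nlrp4a (gene ID 243880, 26435113 to 26476142) lies between Nlrp9c and Nlrp9a. It had 14.5, 21.0, 12.7 and 5.83 FPKM in DMSO and 45.2, 31.9, 25.1 and 20.6 FPKM in IWR1. IWR1 library 8 lay just below DMSO library 2, so the groups overlapped. The log2 fold change was 1.04 (SE 0.34, edgeR adjusted p = 0.0236), and the call was lost without IWR1 library 5 (log2 fold change 0.76, edgeR adjusted p = 0.0853).

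Nlrp4b (gene ID 210045, 10687793 to 10730168) had 7.56, 4.29, 6.92 and 2.87 FPKM in DMSO and 14.7, 13.3, 8.63 and 9.84 FPKM in IWR1. The lowest IWR1 library was above the highest DMSO library by a small margin in FPKM. FPKM leaves out the TMM factors, which were 0.840 for DMSO library 3 and 1.08 for IWR1 library 7. This margin therefore depends on the scaling. Its log2 fold change of 0.92 (SE 0.33, edgeR adjusted p = 0.0334) was the least stable call. Leaving out DMSO library 2 gave an edgeR adjusted p of 0.0950, and DMSO library 4 one of 0.0620. For IWR1 libraries 5 and 6 the edgeR adjusted p was 0.0968 and 0.0774. Nlrp4c (gene ID 83564, 6045161 to 6105149) rested on few reads, with 11, 132, 334 and 108 counts in DMSO and 80, 273, 164 and 151 counts in IWR1. These were 0.183, 1.92, 1.87 and 0.602 FPKM against 1.23, 2.29, 2.22 and 1.52 FPKM, so the groups overlapped. Its log2 fold change was 0.45 with a 95% interval from -0.88 to 1.79 (edgeR adjusted p = 0.566), an interval that spans a fall and a rise.

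Nlrp14 (gene ID 76858, 107113455 to 107198103) is the member farthest along the chromosome. It had 74.0, 62.6, 54.0 and 33.3 FPKM in DMSO and 127, 153, 58.2 and 71.6 FPKM in IWR1. IWR1 libraries 5 and 6 were above all DMSO libraries, while IWR1 libraries 7 and 8 lay within the DMSO range. The log2 fold change was 0.71 with a 95% interval from 0.03 to 1.39 before adjustment (edgeR adjusted p = 0.0784). Its side of the threshold depended on the setting: the edgeR adjusted p was 0.0257 without IWR1 library 7 and 0.0392 with library totals alone, and DESeq2 gave 0.0308. In the authors' deposited table the adjusted p of Nlrp14 was 0.0404 and that of Nlrp4c 0.526, with log2 fold changes of 0.75 and 0.52.

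**Figure D3:**
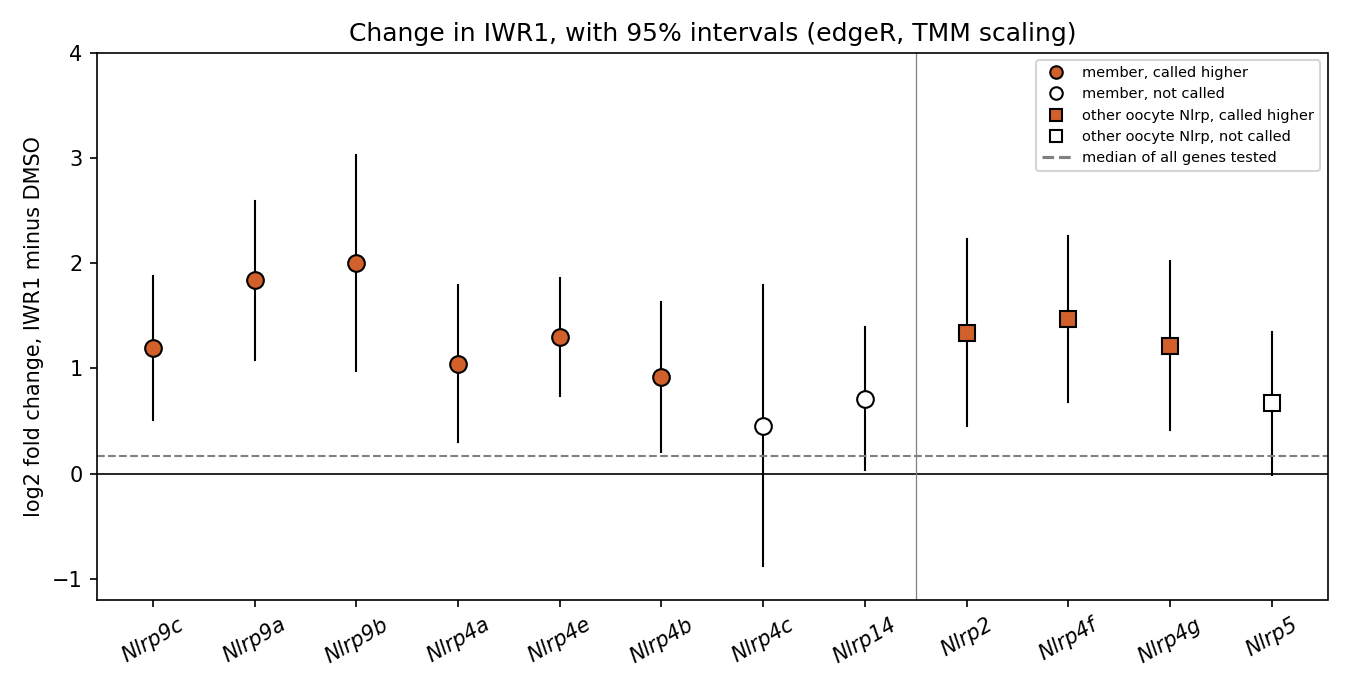
Log2 fold change (IWR1 minus DMSO) of the 8 members (circles) and 4 other oocyte Nlrp genes (squares), with 95% intervals, filled where called higher by edgeR. All lie above the median of all genes tested (dashed, 0.17), and Nlrp4c, Nlrp14 and Nlrp5 are open symbols.

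For 5 of the 8 members all IWR1 libraries lay above all DMSO libraries in FPKM, as did 28.3% of the genes tested. Another 22.0% were the other way round and no member was. FPKM leaves out the TMM factors that the edgeR test uses, so such a count depends on the scaling. Most members shared their high and low libraries within a group. Nlrp4c, however, was lowest in DMSO library 1, and Nlrp4e was lowest in DMSO library 3 and highest in IWR1 library 8. How many of all genes tested share these libraries was not counted, so this is not shown to be particular to the members. DMSO library 4 was the lowest of its group for 6 members and lay below the group mean for all 8, with a median deviation of -0.89 on the log2 CPM scale. IWR1 library 5 was above its group mean for 7 members (median deviation 0.49), and IWR1 libraries 7 and 8 were below it for 7 members each. DMSO library 4 was also lowest in the summed level of 8 oocyte transcription and growth factor genes, with 570 CPM against 887 to 1129 CPM in DMSO libraries 1 to 3. The 8 genes of the subcortical maternal complex summed to 937 CPM there against 1389 to 2278 CPM. Zbed3 had the most counts of these 8 in DMSO library 4 (26878). It was lowest in that library, as were Nlrp4f, Nlrp2 and Nlrp5. Tle6, Ooep, Khdc3 and Padi6 were instead lower in DMSO library 3 than in library 4, with 16.1 against 19.2 FPKM for Tle6. Without DMSO library 4, 5 members were called higher and their median log2 fold change was 0.89, and without IWR1 library 5 the values were 4 and 0.88 (edgeR). Over all genes, where 3494 were called higher and 3803 lower with every library, 3440 and 3446 were called without DMSO library 4, and 2940 and 3599 without IWR1 library 5. Among the 2 shallower libraries of each group alone 3 members were called (12.7% of all genes higher, 13.9% lower), and among the 2 deeper alone also 3 (12.9% and 17.5%). The members' median log2 fold changes there were 0.96 and 1.29.

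The make-up of the set does not depend on how libraries are scaled. Nlrp9a made up 12.5% ± 1.60 of the summed FPKM of the 8 genes in DMSO and 19.2% ± 1.29 in IWR1 (SD, n = 4 each). By library its share was 13.1%, 14.4%, 11.6% and 10.8% in DMSO and 19.1%, 19.8%, 17.5% and 20.5% in IWR1, so the groups did not overlap. Nlrp9c held 60.7% ± 3.47 and 59.6% ± 4.22, with overlapping libraries. The share of Nlrp14 was 15.4%, 12.8%, 15.2% and 20.8% in DMSO and 10.0%, 15.5%, 7.72% and 8.03% in IWR1. IWR1 libraries 5, 7 and 8 were below every DMSO library, and IWR1 library 6 lay within the DMSO range. The shares of Nlrp4a, Nlrp4b, Nlrp4c, Nlrp4e and Nlrp9b overlapped between groups. No test was made on shares.

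**Figure D4:**
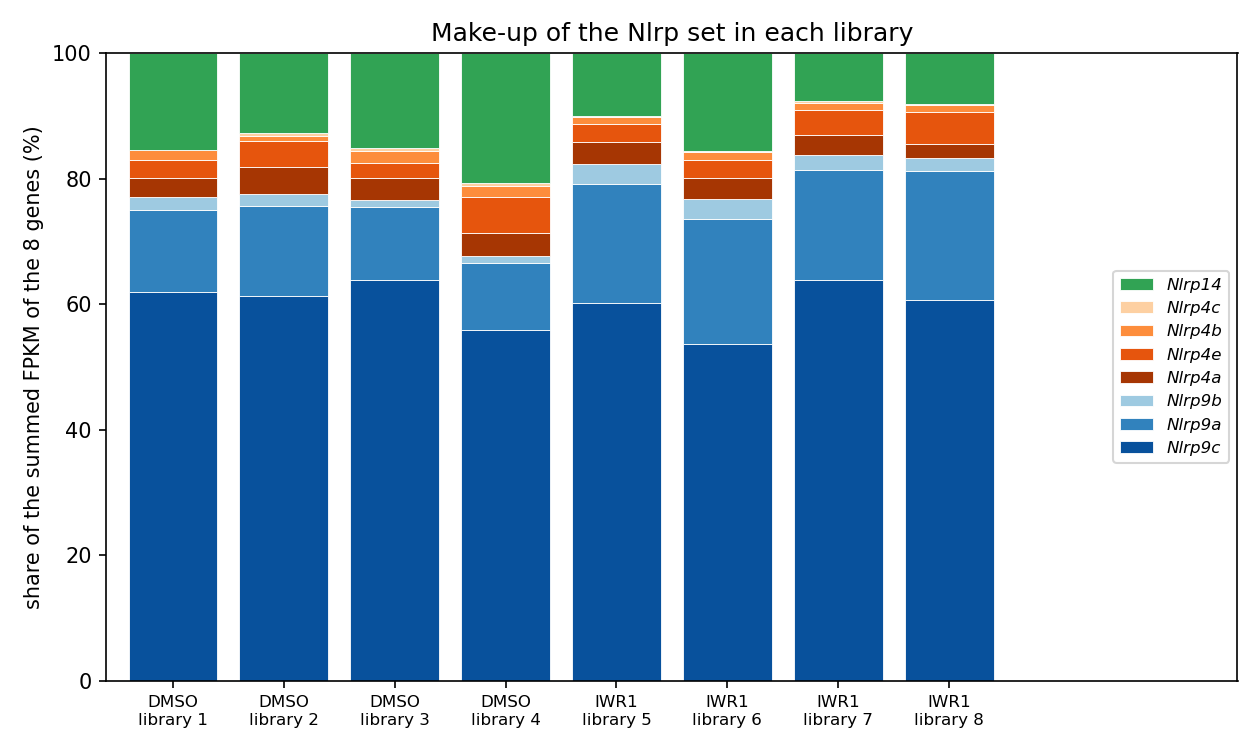
Share (%) of each member in the summed FPKM of the 8 genes, 1 stacked bar per library. Nlrp9c fills 53.7% to 63.9% of every bar, and Nlrp9a is wider in all 4 IWR1 bars than in any DMSO bar.

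Of 6 ratios between members, 2 stood apart between the groups. Those of Nlrp9b to Nlrp9c, Nlrp9c to Nlrp14, Nlrp4e to Nlrp4a and Nlrp4b to Nlrp4a overlapped. The 6 pairs were picked by hand without a rule, and other pairs of members were not computed. How often ratios of other gene pairs stand apart was not counted. Both ratios that stood apart hold Nlrp9a, so they are not separate from its larger share given above. The FPKM of Nlrp9a was 0.212, 0.235, 0.181 and 0.193 of that of Nlrp9c in DMSO and 0.318, 0.369, 0.274 and 0.337 in IWR1. These groups were apart. The ratio of Nlrp9a to Nlrp14 was 0.848, 1.12, 0.765 and 0.516 in DMSO and 1.91, 1.28, 2.26 and 2.55 in IWR1. Nlrp9a was thus below Nlrp14 in DMSO libraries 1, 3 and 4 and above it in every IWR1 library. Nlrp14 against Nlrp5, which encodes MATER of the subcortical maternal complex, stayed within 3.11 to 3.77 in DMSO and 3.27 to 3.78 in IWR1.

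Of 4 other oocyte Nlrp genes, Nlrp4f, Nlrp4g and Nlrp2 rose. Nlrp4f, on chromosome 13, rose by 1.47 (SE 0.36, edgeR adjusted p = 0.00527), from 90.0 ± 55.3 to 274 ± 52.6 FPKM, and Nlrp4g, on chromosome 9, by 1.21 (SE 0.37, edgeR adjusted p = 0.0163), from 24.5 ± 13.5 to 62.5 ± 12.7 FPKM (SD, n = 4 each). Nlrp2 rose by 1.34 (SE 0.41, edgeR adjusted p = 0.0171). Nlrp5 went from 16.5 ± 5.77 to 29.2 ± 12 FPKM (SD, n = 4 each) and did not pass (log2 fold change 0.67, SE 0.32, edgeR adjusted p = 0.0974). So 3 of 4 were called higher and 0 lower, with a median log2 fold change of 1.28; Nlrp4d was not analysed here. Among the shallower libraries alone 0 of these genes were called, and among the deeper alone 2.

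**Figure D5:**
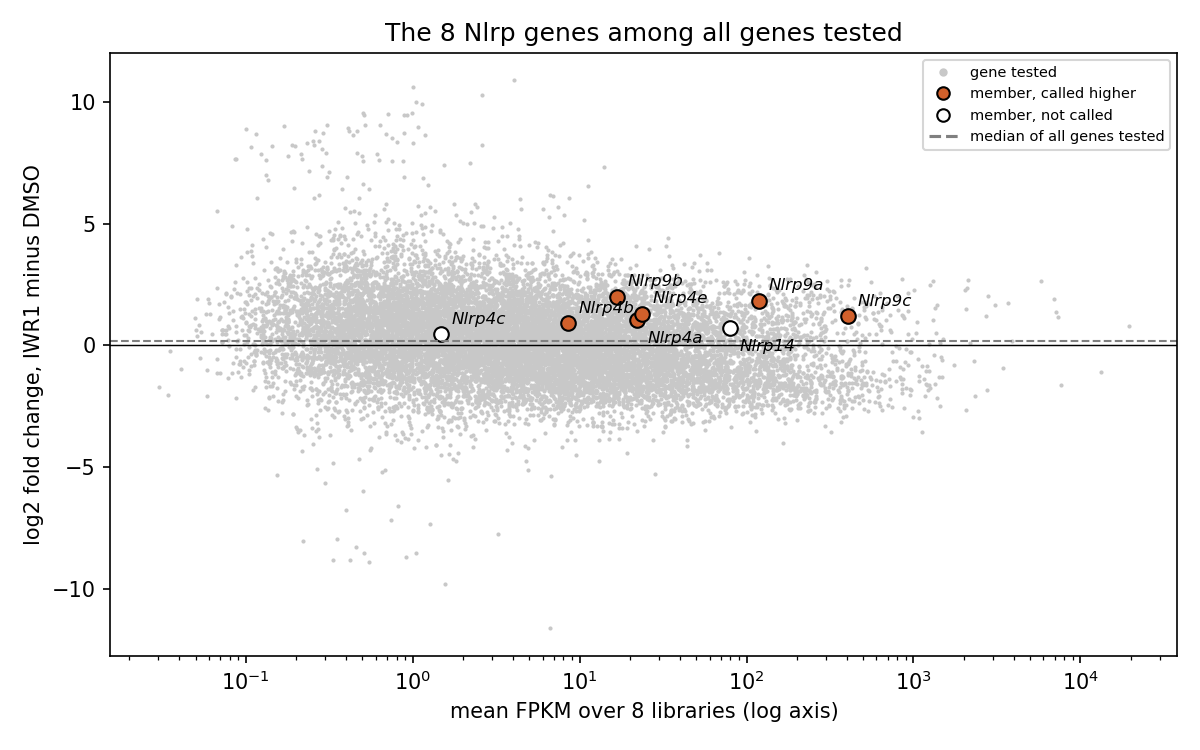
Log2 fold change (IWR1 minus DMSO) against mean FPKM (log axis) for all 14994 genes tested (grey), with the 8 members marked and filled where called higher by edgeR. The members lie above 0 over a range of mean levels and inside the cloud of other genes.

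Among 8 genes of the subcortical maternal complex, a protein assembly of egg and early embryo, 3 were higher and 0 lower (median log2 fold change 0.77). Nlrp4f and Nlrp2 of these were counted above, and Zbed3, which rose by 1.13 (SE 0.26), was the 1 called gene outside the Nlrp family. Among the shallower libraries alone 0 of the 8 were called, and among the deeper alone 3 were higher. Of 20 tested oocyte transcripts 11 were higher and 2 lower (median 0.75), with Npm2, a histone chaperone gene, rising by 2.05 (SE 0.22) and Ybx2, an mRNA-binding protein gene, by 1.96 (SE 0.22). Of 8 oocyte transcription and growth factor genes 5 were higher and 1 lower (median 1.29). Among the shallower libraries alone 1 was higher, and among the deeper alone 7. The lists overlap: Gdf9 and Bmp15, both higher, are also among the oocyte transcripts, and so is Padi6 of the complex, which did not pass. The oocyte homeobox gene Nobox rose from 17.4 ± 7.33 to 52.5 ± 17.1 FPKM and Sohlh1 from 0.0739 ± 0.0877 to 4.80 ± 0.533 FPKM, while Taf4b fell from 31.8 ± 2.22 to 13.4 ± 1.23 FPKM (SD, n = 4 each). Figla, an E-box factor of oocytes, had 0.922 ± 1.79 and 4.77 ± 2.68 FPKM (SD, n = 4 each) and did not pass (edgeR adjusted p = 0.181). Nobox and Figla are named for the motifs searched above and were chosen after their values were seen.

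Of 4 genes reported as partners of NLRP14, 0 were higher and 2 lower (median log2 fold change -0.81). Kpna2, an importin gene, fell by 1.58 (SE 0.19, edgeR adjusted p = 4.39e-05), from 542 ± 55.2 to 206 ± 48.1 FPKM (SD, n = 4 each). Slc8b1, which encodes a mitochondrial sodium-calcium exchanger, fell by 1.99 (SE 0.68, edgeR adjusted p = 0.0279), from 1.33 ± 0.535 to 0.367 ± 0.247 FPKM (SD, n = 4 each). Without DMSO library 1 or 2, or IWR1 library 6 or 8, 1 of the 4 partner genes was called lower. Uhrf1, a cofactor of maintenance DNA methylation that NLRP14 is reported to protect, had a log2 fold change of 0.02 with a 95% interval from -0.40 to 0.45, and Dnmt1 had -0.04 with -0.54 to 0.45.

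Of 10 tested NLR genes outside the oocyte group, 2 were higher and 2 lower (median 0.76). The count of lower genes was 1 without DMSO library 4, IWR1 library 6 or IWR1 library 8 and among the shallower libraries alone. It was 0 among genes averaging 5 FPKM or more, but that filter had removed both genes called lower. These were Nlrp12, with a mean of 1.72 FPKM, and Nlrp3, with 0.771 FPKM. Nlrc4 rose by 1.78 (SE 0.42) and Naip1 by 3.25 (SE 0.93), while Nlrp12 fell by 2.47 (SE 0.60) and Nlrp3 by 1.91 (SE 0.62). Naip1 and Nlrp3 were chosen after their values were seen. Of 4 tested inflammasome partner genes Nek7, a mitotic kinase gene, was higher, and the other tested genes did not pass (median -0.47); among the deeper libraries alone 0 were higher. Of 7 spermatid markers, 5 were tested, 3 were higher and their sum was 0.603 to 2.94 CPM in DMSO and 8.85 to 18.4 CPM in IWR1. Of 6 myeloid markers in the table, 4 were tested, 3 were higher and 1 lower, with sums of 8.50 to 12.2 and 47.6 to 69.7 CPM, and the defining gene Ptprc was at 0. Of 10 granulosa and cumulus markers, 4 were tested, 1 was higher and 1 lower, with sums of 45.0 to 69.1 and 29.5 to 43.8 CPM, and Amh and Inhba were at 0. Amhr2, the gene called lower, had more counts than any other of the 10 in every library. The median log2 fold change of the 4 tested was 1.08, and 3 were positive. Of 8 markers of later cleavage and blastocyst stages, 7 were tested, 2 were higher and 1 lower, with sums of 52.8 to 66.7 and 86.3 to 108 CPM. The part of these cells or stages in the members' values was not tested.

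The genes whose pattern over the 8 libraries was most like that of Nlrp9c, the most abundant member, were found by the root mean square difference of gene-centred log2 CPM. They were Tsga10 (0.092), Rab2a (0.139), Fmn2 (0.160), Usp15 (0.187) and Nlrp4g (0.189), out of 14993 genes. Fmn2 encodes a formin needed for spindle positioning in the mouse oocyte and Rab2a a small GTPase of the early secretory pathway. Of the members, Nlrp4a ranked 61 with 0.258, Nlrp9a 339 with 0.362, Nlrp4b 427 with 0.383, Nlrp4e 869 with 0.461, Nlrp14 1283 with 0.522, Nlrp9b 2018 with 0.604 and Nlrp4c 7414 with 1.16.

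The nearest neighbours of the members in the count table were mostly silent or did not pass the test. The vomeronasal receptor genes beside them, Vmn1r65, Vmn1r70, Vmn1r71, Vmn1r91 and Vmn1r185, had 0 to 48 counts summed over DMSO and 0 to 3 over IWR1. Cyp2a4, on the lower side of the Nlrp9c, Nlrp4a and Nlrp9a row, had 15 counts in DMSO and 105 in IWR1 and did not pass (edgeR adjusted p = 0.190). Zfp787 beside Nlrp4c had 0.80 (SE 0.66) and Gm6902 beside Nlrp4e -0.60 (SE 0.28) on the log2 scale, and neither passed. Rbmxl2, 11342 bases beyond Nlrp14, rose by 2.08 (SE 0.56, edgeR adjusted p = 0.00868), and Ceacam20 beside Nlrp9b rose as given above. Gm10081 on the other side of Nlrp14, and Olfr715 and Olfr716 inside its model, had 0 counts in every library.

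No listed region of changed open chromatin lay within 10 kb of a member. The share of all genes with a region that near was not computed, so whether the members differ from other genes cannot be said. Of 2345 regions higher in IWR1, 0 lay within 100 kb of a member, and the nearest was 181 kb from Nlrp4c (chr7:6285694-6286774). Of 1400 regions lower in IWR1, 1 lay within 100 kb, 90.7 kb from Nlrp4c (chr7:6195889-6196889), and 0 within 10 kb. The nearest listed region was 428 kb from Nlrp9b, 746 kb from Nlrp4a, 648 kb from Nlrp9a, 818 kb from Nlrp9c, 883 kb from Nlrp4e, 275 kb from Nlrp4b and 1319 kb from Nlrp14. The lists give no value per library, so they do not show whether chromatin at the genes was open.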

How the data were processed

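The members and lists were chosen with earlier results of these data known. The deposited RNA-seq table holds raw counts per gene and library, per the file headers. FPKM was recomputed with the gene lengths and library totals of that table and differed from the FPKM the authors deposited for the DMSO libraries, where it was compared, by at most 2.58e-10. The table also holds log2 fold changes and adjusted p-values that the authors deposited. The submitters' processing notes name mm10, STAR 2.5.1b, featureCounts 1.5.0-p1, Bowtie2 2.2.6, MACS2 and DESeq2, without roles.

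The IWR1 columns, numbered 5 to 8, match no single sample label and were assigned to the group; a further 12 per-library columns were left aside. Replicates are independent collections per the labels. No pair of replicates had identical counts (lowest chi-square per degree of freedom 26.6).

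Genes were filtered with filterByExpr and tested with edgeR 4.0.16 (R 4.3.3), quasi-likelihood test on counts, with TMM factors, a model of treatment alone, two-sided p-values and Benjamini-Hochberg adjustment. A standard error is the size of the log2 fold change divided by the square root of F. The fit was tested on simulated data. Alternatives were DESeq2 1.42.0, library totals, relative log expression scaling, other filters, the shallower or deeper libraries alone and each library left out. RefSeq GRCm38.p6 gave positions (24815 entries matched by gene ID) and promoter windows, aligned with Biopython 1.88; the protein comparison planned was not made, since protein sequences were not used here. Named genes were the members, 2 short lists in full, up to 2 examples per other list by smallest adjusted p, nearest neighbours, and the 5 genes most like the most abundant member. Others are marked where named.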

Additional observations from a re-analysis of the deposited data

Results flagged for a closer look

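One value stood apart. Nlrp2 had 0.586 FPKM in DMSO library 4, while the other 3 DMSO libraries lay between 2.70 and 2.88 FPKM, a gap of 0.919 of the whole range. Of 42 groups of 4 values examined this was the 1 found. Chance alone gives about 1 in 20 groups, so 1 among 42 is no more than chance would give. None of the 8 members was found by this test in either group, although DMSO library 4 was the lowest DMSO library for 6 of them.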

How the results depend on the processing

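Under each alternative run, 0 members were called lower and each tested member kept a positive log2 fold change. The number called higher, 6, was 7 with library totals alone, with DESeq2 and among genes averaging 5 FPKM or more, and 6 with relative log expression scaling and with no filter (edgeR except where DESeq2 is named). It ranged from 4 to 7 when 1 library was left out, beside 2940 to 3450 of all genes called higher and 3438 to 3676 lower. All genes called higher and lower were 4056 and 3246 with library totals alone. They were 3677 and 3668 with relative log expression scaling, and 3628 and 3750 with no filter. The number of members called higher was 3 among the shallower libraries alone and 3 among the deeper alone, each a fit of 4 libraries. All genes called higher, 3494, were then 1906 and 2063, and all called lower, 3803, were 2088 and 2802. Nlrp9a and Nlrp9b stayed called in 15 of 15 alternatives, with log2 fold changes of 1.48 to 2.35 and 1.53 to 2.90, and Nlrp9c and Nlrp4e in 14 of 15. Nlrp4a was called in 12 of 15 (0.76 to 1.25) and Nlrp4b in 9 of 15 (0.74 to 1.16). Neither Nlrp4a nor Nlrp4b was called among the shallower or the deeper libraries alone. Nlrp4c passed in 0 of 14 (0.10 to 0.92) and Nlrp14 in 5 of 15 (0.42 to 1.03). The median of all genes tested moved from 0.17 to 0.34 with library totals alone. No paired analysis was possible because the IWR1 columns carry numbers that match no label of the DMSO libraries.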

Other observations

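Outside the 3 Nlrp4 genes, the joined motif CCAATCACATG was in promoter windows of 8 other genes. Of these, 5 were tested: Mpv17l2 fell by 1.03 on the log2 scale (edgeR adjusted p = 0.00347), and Dcxr, Mtr, Oscp1 and Tmem52b did not pass, with log2 fold changes of -0.44, -0.58, -0.74 and 2.10. These genes were found by the motif, whose letters were chosen after the members' windows were read.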
